A study of Rattus norvegicus with 2 samples.

Results

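The genes of the neuronal SNARE fusion machinery, which joins synaptic vesicles to the plasma membrane, were examined in rat sympathetic neurons with and without contact with muscle cells. The members were set by name as Snap25, Stx1a, Vamp1, Vamp2, Cplx1, Cplx2 and Nsf, with earlier results of these data known. Every probe set that the platform annotation gives exactly 1 of these symbols was taken. This gave 14 probe sets for 7 genes, of 15866 probe sets and 10411 genes in all. RNA came from 2 cultures of Rattus norvegicus neurons, and each was hybridised to 1 Affymetrix Rat Expression Set 230A array. One culture held sympathetic neurons without a myocyte target, and the other held sympathetic neurons grown with a myocyte target. The question was which genes accompany the growth inhibition that these neurons show once they meet their target. In both cultures neurons were lifted off with EDTA, which detaches them more readily than the flat cells beneath. The strain, the age of the animals, the time in culture and the number of dishes were not stated in the sources used here. The description field of the co-culture sample speaks of neurons grown alone, whereas its title and source name speak of the myocyte target, and the title was followed. Since each condition has a single array, differences could not be checked against replicates, none was tested, and each value compares these 2 arrays.

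Vesicle release depends on a bundle of helices that SNARE proteins form between the membranes. Syntaxin-1 and SNAP-25 sit on the plasma membrane, and a VAMP (synaptobrevin) sits on the vesicle. Complexins bind the assembled bundle and tie fusion to the calcium signal, and the ATPase NSF, with its SNAP adaptors, pulls used bundles apart so that the SNAREs can be used again. Sympathetic neurons use this machinery to release noradrenaline and neuropeptide Y, and the clostridial neurotoxins act by cutting its SNAREs.

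Both arrays carried the neuronal identity that the labels give. All 7 sympathetic markers measured were above the signal filter, which is the array's own median intensity (185.7 in neurons alone and 175.0 in neurons with myocytes) reached in at least 1 array. The brightest were Npy, with an intensity of 6799 in neurons alone and 5507 in neurons with myocytes, and Th, with 6175 and 4575. Transcripts of flat cells were also bright in both arrays, with Col1a1 at 9988 and 10750 and Col1a2 at 9350 and 9907. The 8 fibroblast and smooth muscle markers summed to 41393 in neurons alone and 42889 in neurons with myocytes. This sum is led by its brightest genes and does not measure the amount of these cells. The 7 measured cardiac markers summed to 650 and 982, and 2 of them were above the filter, Tnnt2 (293 and 408) and Nppa (178 and 201).

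The plasma membrane SNAREs were lower in neurons with myocytes. Snap25, which gives a pair of the bundle's helices, has 1 probe set (1387073_at). Its intensity was 1778 in neurons alone and 1159 in neurons with myocytes. Both values lay well above the array medians, and the signal of the co-culture array was the lower one by 1.53-fold (log2 ratio of neurons with myocytes over neurons alone -0.62). No replicate array gives the error of such a ratio. As a stand-in, the disagreement between probe sets of the same gene was used, in 4 equal groups by signal. It gave a probe-set SD of 0.21 (log2 ratio) in the brightest group, where Snap25 lies, and the Snap25 ratio was 3.0 times that SD. That SD measures how probe sets disagree, not how cultures differ. In bulk RNA such as this, fewer neurons in the sample and less of a transcript per neuron cannot be told apart.

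Stx1a, the syntaxin of synaptic terminals that anchors the complex in the plasma membrane, was measured by 2 probe sets. Probe set 1387360_at read 360 in neurons alone and 248 in neurons with myocytes, 1.45-fold lower (log2 ratio -0.54). Probe set 1387359_at read 305 and 184, 1.66-fold lower (log2 ratio -0.73). Both probe sets were above the filter in both arrays, and their log2 ratios lay 0.20 apart, less than the SD of 0.36 for 1 probe set in the dimmest group. The 2 readings were 1.51 and 2.06 times that SD from 0.

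The main vesicle SNARE, Vamp2, had the lowest log2 ratio of the members above the filter when each gene was read from its brightest probe set. Vamp2 encodes synaptobrevin-2, the VAMP of most central synapses. On probe set 1369974_at its intensity was 1009 in neurons alone and 602 in neurons with myocytes, 1.68-fold lower (log2 ratio -0.75). This was 2.80 times the SD of 0.27 at its signal. Its other probe set, 1371160_at, was dim in both arrays (28.6 and 43.0), below the 25th percentile of signal in each. The lower of these values was under the floor of 39.6, the pooled 20th percentile to which dimmer values were raised before log2 was taken. The log2 ratio there was 0.12 with the floor and 0.59 without, so the dim probe set ran the other way, at a signal where the ratio depends on the floor.

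Vamp1, the paralog known from motor and sensory neurons, gave weaker and less even readings. Its brightest probe set, 1373510_at, read 331 in neurons alone and 283 in neurons with myocytes, 1.17-fold lower (log2 ratio -0.23). That is 0.64 of the SD at this signal. Probe set 1370556_at read 218 and 136, 1.60-fold lower (log2 ratio -0.68), and reached the filter in neurons alone only. Probe set 1387519_at, below the filter in both arrays, read 130 and 116 (log2 ratio -0.17). All 3 were lower in neurons with myocytes, and their log2 ratios spanned 0.51.

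The complexins were also lower, with very different certainty. Cplx1, a complexin of synaptic terminals, read 821 in neurons alone and 641 in neurons with myocytes on probe set 1398357_at, 1.28-fold lower (log2 ratio -0.36, or 1.34 times the SD). On probe set 1369811_at it read 286 and 160, 1.79-fold lower (log2 ratio -0.84, or 2.35 times the SD), where the second value was under its array's median. Both readings had the same direction and lay 0.48 apart on the log2 scale. Cplx2, a close paralog, has 1 probe set (1368584_a_at), which was below the filter in both arrays. It read 91.8 in neurons alone and 12.3 in neurons with myocytes. Its log2 ratio of -1.21 was fixed by the floor, became -2.91 with no floor and 0 with the floor at the 40th percentile, and it is left out of the counts over genes because it is below the filter.

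Nsf, the ATPase that takes the bundle apart, was close to equal in both arrays. Probe set 1369690_at read 479 in neurons alone and 456 in neurons with myocytes (log2 ratio -0.07), a difference that turned to 0.01 under median scaling. Probe set 1372528_at read 431 and 485, 1.12-fold higher (log2 ratio 0.17). Probe set 1369689_at read 420 and 318, 1.32-fold lower (log2 ratio -0.40). All 3 were above the filter in both arrays, and the 2 signs among them leave no common direction. Their log2 ratios spanned 0.57, the widest spread among the genes whose probe sets were all above the filter.

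**Figure D1:**
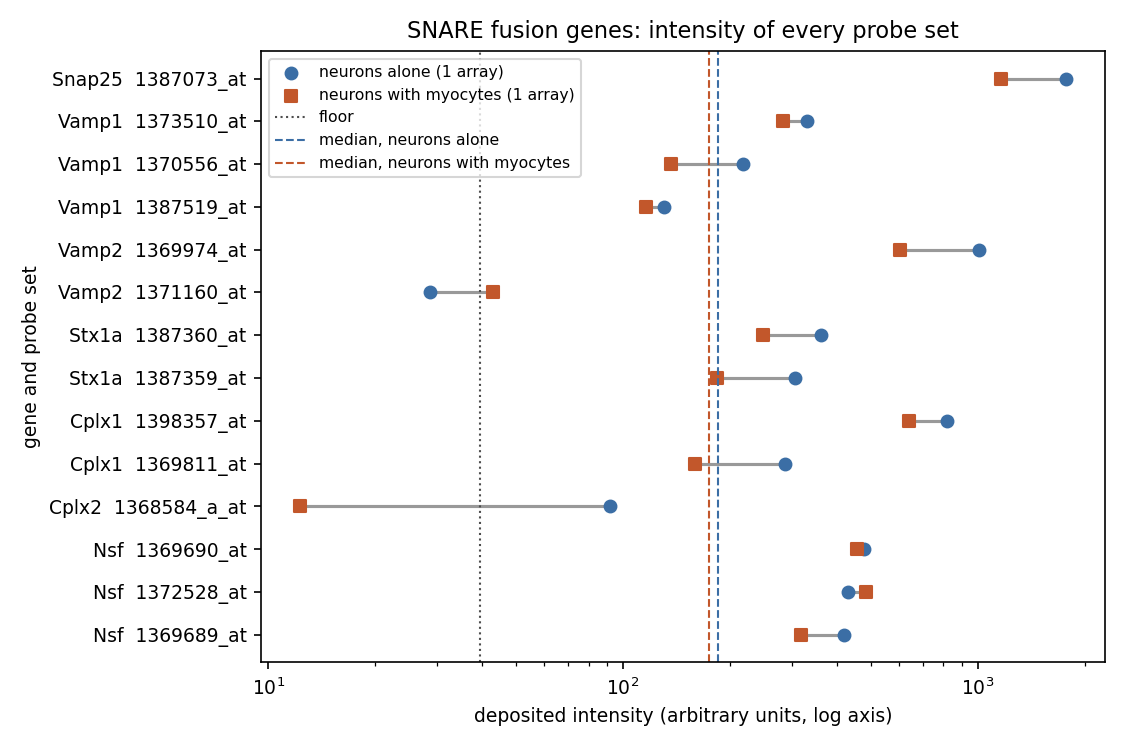
Deposited intensity on a log axis for each of the 14 probe sets, with 1 point per array (circles, neurons alone; squares, neurons with myocytes), the floor (dotted) and the array medians (dashed). The square lies left of the circle for all but 1 probe set of Vamp2 and 1 of Nsf, and the gap is narrowest for Nsf 1369690_at.

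Counted over probe sets, 12 of 14 were lower in neurons with myocytes. This count takes in 3 below the filter (2 lower and 1 higher), and the share over all probe sets without a filter was not computed. Of the 11 above the filter, 10 were lower, against 54% of all 8308 probe sets above the filter. At least 1.5-fold lower were 5 of the 11, against 4.24% of all. Because a probe set can pass through the array where it is high, the 9 that reached the median in both arrays were also counted: 8 were lower, against 54.1% of the 7558 probe sets that passed this way, 3 of them by at least 1.5-fold, against 2.7%, and none by 2-fold. The median log2 ratio of these 9 was -0.40. Probe sets of 1 gene share a transcript and are not independent of each other.

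Counted over genes, each by its brightest probe set, 6 of 7 members were above the filter, all 6 in both arrays. All 6 were lower, against 52.7% of the 6368 genes above the filter. Under median scaling, which raises the whole co-culture array, 5 of the 6 were lower, with Nsf at 0.01, against 38.7% of all genes. Snap25 and Vamp2 were at least 1.5-fold lower, 2 of 6, against 3.3% of all genes. As the members were chosen with earlier results of these data known, these counts are descriptions only. Among all genes past 1.5-fold, 210 were lower and 123 higher, so 63.1% of them were lower. That share was 48.5% after quantile normalization, 42.4% after median scaling, 49.5% after lowess and 78.2% after scaling to the spiked controls. The median log2 ratio of the 6 members was -0.45, against -0.01 over all genes above the filter. A log2 ratio as low as that of Vamp2 was seen in 1.63% of these genes, as low as Snap25 in 2.89%, and as low as Stx1a in 4.35%. For Cplx1 the share was 10.5%, for Vamp1 21.1% and for Nsf 41.0%. Vamp2, Snap25 and Stx1a were thus in the low tail of the array, whereas Nsf lay near its middle.

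**Figure D2:**
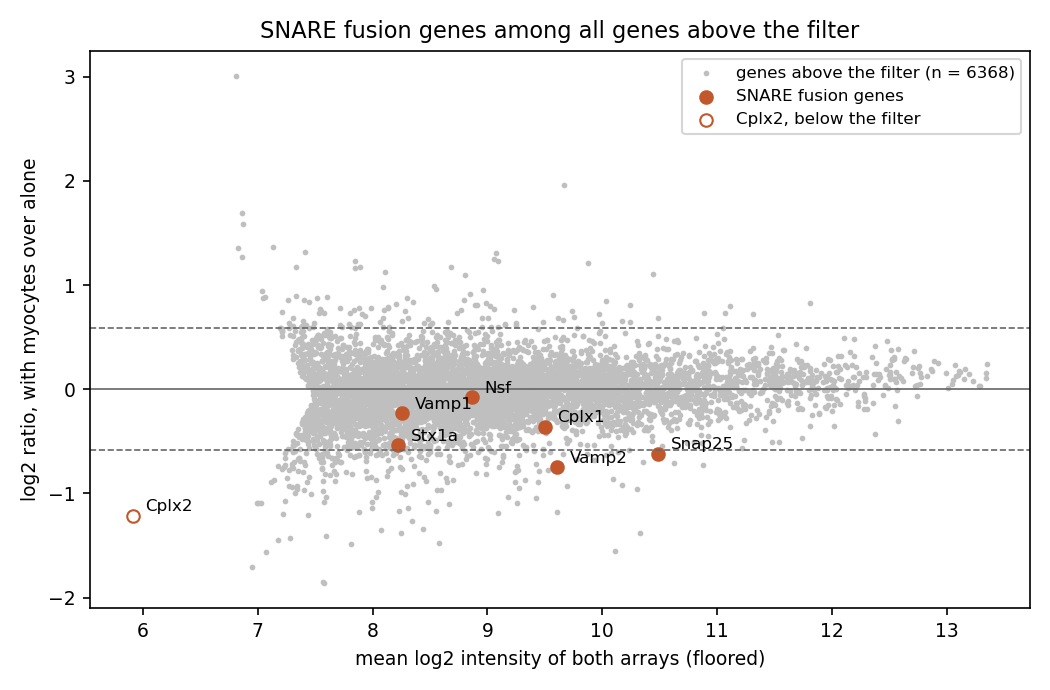
Log2 ratio of neurons with myocytes over neurons alone against the mean log2 intensity of both arrays, for the 6368 genes above the filter (grey) and the SNARE fusion genes (orange, open for Cplx2, which was below the filter). Dashed lines mark 1.5-fold. Vamp2 (-0.75) and Snap25 (-0.62) lie under the lower line, and Nsf (-0.07) lies next to 0.

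For the 4 members with several probe sets above the filter (Vamp1, Stx1a, Cplx1 and Nsf), the choice of probe set moved the log2 ratio more than the choice of scaling. For Vamp1, Stx1a and Cplx1 the brightest probe set, which gives the gene's value, showed the smaller decrease, and the next one above the filter showed a log2 ratio lower by 0.20 to 0.48. Across all 749 genes measured above the filter by more than 1 probe set, the next probe set had a lower ratio than the brightest in 58.1%, and both had the same sign in 62.8%. With a gene's value taken as the mean of its probe sets above the filter, 4 of the 6 members were at least 1.5-fold lower (Snap25, Vamp2, Stx1a and Cplx1), against 3.42% of all genes, and the median was -0.61. That setting takes in the Cplx1 and Vamp1 probe sets that passed through neurons alone, the array where they were high. An alternative added after seeing the data took the mean of the probe sets above the filter in both arrays alone. There 3 of the 6 were at least 1.5-fold lower, against 3.23% of all genes, the median was -0.49 and Cplx1 was at -0.36. Under the other scalings Vamp2 stayed between -0.81 and -0.66 and Snap25 between -0.68 and -0.53 on the log2 scale.

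**Figure D3:**
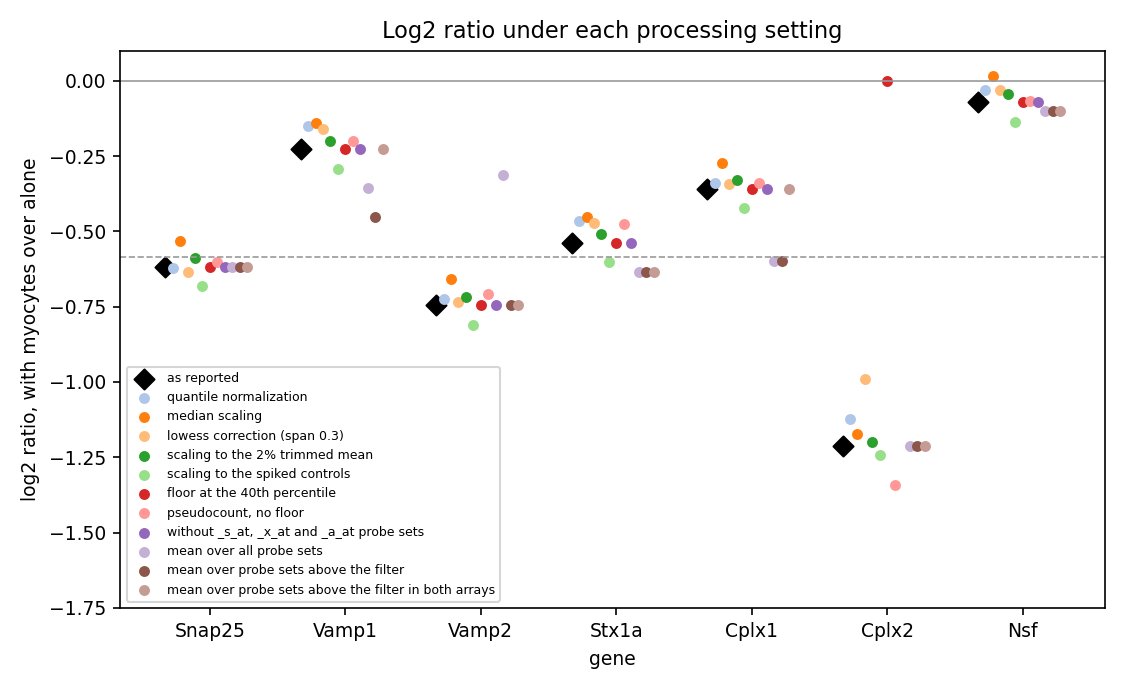
Log2 ratio of each of the 7 genes as reported (black diamonds) and under each alternative processing (coloured points), leaving out the setting with no floor, where Cplx2 reached -2.91. The dashed line marks 1.5-fold lower. The points of Snap25, Stx1a, Vamp1, Vamp2 and Cplx1 stay below 0, Nsf crosses it under median scaling, and Cplx2 moves from -1.21 to 0 with the floor at the 40th percentile.

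SNAREs of other membrane routes were closer to equal than the synaptic set. Of 34 such genes listed, 26 were measured and 22 were above the filter. Of these, 13 were lower and 9 higher, none by 1.5-fold, and the median log2 ratio was -0.10, against -0.45 for the 6 synaptic members. The difference between the lists was not tested. Snap23, the widely expressed paralog of Snap25, read 439 in neurons alone and 472 in neurons with myocytes (log2 ratio 0.10). Its second probe set gave a log2 ratio of 0.39 (158 and 207). Vamp3 (cellubrevin), the widely expressed paralog of Vamp2, read 1705 and 1558 (log2 ratio -0.13). On the brightest probe sets, Snap25 and Vamp2 had lower ratios than these paralogs, although with 1 array each this difference was not tested. With the mean over all its probe sets, which brings in its dim one, Vamp2 was at -0.31.

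The lowest of these other SNAREs were Ykt6 (557 and 386, log2 ratio -0.53), Stx18 (472 and 349, -0.43) and Vamp5 (345 and 263, -0.39). Ykt6 works on Golgi, endosomal and autophagic routes, Stx18 in the endoplasmic reticulum, and Vamp5 was first known from muscle. The highest were Use1 (466 and 599, log2 ratio 0.36), Sec22b (363 and 448, 0.31) and Vamp7 (471 and 538, 0.19). Use1 and Sec22b act between endoplasmic reticulum and Golgi, and Vamp7 on late endosomes and lysosomes. Early secretory SNAREs thus stood at both ends of the list.

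Regulators of SNARE assembly were mixed. Of 27 measured, 16 were above the filter, 9 of them lower and 7 higher, with a median log2 ratio of -0.10. The lowest were Stxbp2 (Munc18-2), the syntaxin partner of granule release in non-neuronal cells, at 330 in neurons alone and 217 in neurons with myocytes (log2 ratio -0.61), Cadps (CAPS-1), which primes dense-core vesicles, at 527 and 367 (-0.52), and Doc2b, a calcium sensor of release, at 208 and 156 (-0.42), which reached the filter in neurons alone only. Stxbp3 (Munc18-3), which partners syntaxin-4 in many cell types, was the highest at 272 and 375 (log2 ratio 0.46), followed by Scfd1 (457 and 503, 0.14) and Vps33a (252 and 270, 0.10), whose other probe set ran the other way (201 and 113, -0.83). Napa (alpha-SNAP), the adaptor through which NSF acts, read 841 and 728 (log2 ratio -0.21), so the disassembly pair Napa and Nsf both differed by less than 1 probe-set SD on their brightest probe sets. The 4 priming genes Unc13a, Unc13b, Unc13c and Unc13d were under the floor in both arrays.

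Other presynaptic and neuronal transcripts were lower as well. Of 17 vesicle membrane and associated genes above the filter, 17 were lower, with a median of -0.35, and of all 30 measured, dim ones included, 23 were lower and 4 higher. The lowest were Rab3a (-1.85), Syt9 (-1.08) and Syn2 (-0.70), of which Rab3a (361 and 100) and Syt9 (279 and 131) reached the filter in neurons alone only. The 15 that reached it in both arrays had a median of -0.31. The highest were Syngr2 (-0.06), Syt17 (-0.10) and Sv2b (-0.13), and Syp lay at -0.25. The 7 sympathetic markers were all lower, with a median log2 ratio of -0.43. Of 23 pan-neuronal genes above the filter, 20 were lower and 3 higher, with a median of -0.20. Of all 26 pan-neuronal genes measured, dim ones included, 20 were lower and 6 higher. Among all genes above the filter, 52.7% were lower.

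**Figure D4:**
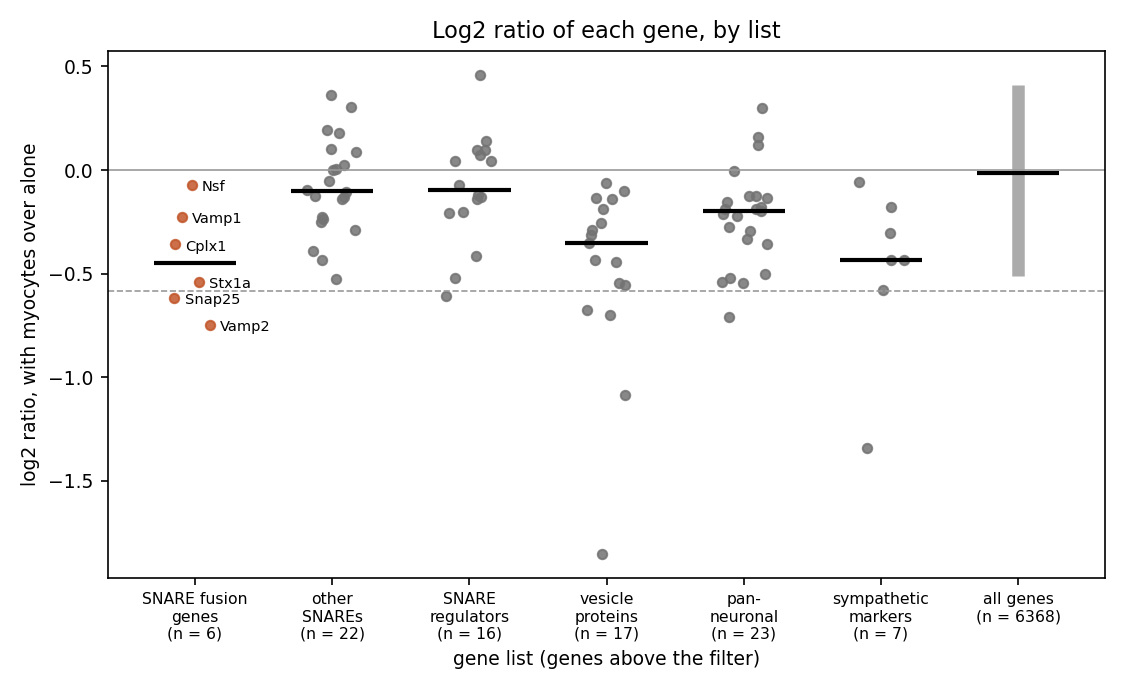
Log2 ratio of neurons with myocytes over neurons alone for each gene above the filter, by list, with the list median as a bar. For all 6368 genes the grey bar spans the 5th to the 95th percentile, and the dashed line marks 1.5-fold lower. The medians are -0.45 for the SNARE fusion genes, -0.10 for the other SNAREs and -0.10 for the regulators, and -0.35, -0.20 and -0.43 for the vesicle proteins, pan-neuronal genes and sympathetic markers.

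Markers of other cells that could be in the dish went both ways across the lists, although no measured cardiac marker was lower. Of 8 fibroblast and smooth muscle markers, 6 were higher and 2 lower, with a median log2 ratio of 0.09. The matrix genes Dcn (306 and 652, log2 ratio 1.09) and Lum (395 and 689, 0.80), named after their values were seen, were past 1.5-fold higher. The 2 lower markers of this list were Acta2 (4040 and 2913, log2 ratio -0.47) and Tagln (4094 and 3500, -0.23). Acta2 and Tagln were likewise picked for mention with their values already known. Of the 7 cardiac markers, 5 were higher in neurons with myocytes, 3 of them below the filter, and the other 2 were under the floor in both arrays. Nppa reached the filter in neurons with myocytes only. Of 5 Schwann and satellite glia markers above the filter, 3 were higher and 2 lower, with a median of 0.09. The 4 that reached the filter in both arrays were 2 higher and 2 lower, with a median of -0.01. The brightest were Pmp22 (3141 and 2916) and Sox10 (706 and 750). S100b, Erbb3 and Mbp were named after their values were seen. S100b, a calcium-binding protein of glia, was 1.99-fold higher (263 and 524, log2 ratio 0.99). The neuregulin receptor Erbb3 was 1.44-fold higher (160 and 231, 0.52) and reached the filter in neurons with myocytes only. The 2 lower ones were Mbp (392 and 324, -0.28) and Pmp22 (-0.11). The 6 measured glial markers summed to 4765 and 4848, a sum led by Pmp22. Macrophage markers above the filter were lower in 3 of 4 (median -0.30), the brightest being Cd14 (420 and 475) and Cd68 (275 and 230). Aif1 (203 and 160) and Csf1r (191 and 132), named after their values were seen, reached the filter in neurons alone only. The 2 that reached it in both arrays were 1 lower and 1 higher, with a median of -0.04. The 5 measured macrophage markers summed to 1133 and 1028. All 3 measured endothelial genes were below the filter, with Vwf at 63.6 and 39.96 and Pecam1 at 33.0 and 32.5. The part of cell composition in the lower SNARE transcripts was not tested.

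The bases in front of the members' start sites were read from RefSeq promoter sequences (GRCr8, 250 bases upstream of the annotated start). The table held 6 of the 7 members, all but Snap25. It was searched on both strands for the GC box GGGCGG, which SP1-type factors bind, and for the full cAMP response element TGACGTCA; these motifs do not overlap. All 6 members held a GC box, against 30.5% of all 33469 promoters of this length and 62.3% of the 5848 promoters of genes above the filter. These 6 take in Cplx2, which was below the filter, and lack Snap25. They are thus not the 6 members counted above the filter. The response element was in 1 member, Vamp1, against 1.59% of all promoters and 3.06% of those of genes above the filter. The members' median GC content was 68.0%, against 51.2% over all promoters and 60.8% for genes above the filter. Vamp1 (50.4%) and Cplx2 (50.8%) lay below both of these, and the other members lay between 68.0% and 69.2%. Vamp2, Vamp1 and Stx1a are shown because they contrast the member with the lowest ratio above the filter, its paralog with the response element and the member with the most GC boxes, with both motifs in capitals (CCGCCC is the GC box on the other strand):
Vamp2, chr10:54292539-54292788, + strand: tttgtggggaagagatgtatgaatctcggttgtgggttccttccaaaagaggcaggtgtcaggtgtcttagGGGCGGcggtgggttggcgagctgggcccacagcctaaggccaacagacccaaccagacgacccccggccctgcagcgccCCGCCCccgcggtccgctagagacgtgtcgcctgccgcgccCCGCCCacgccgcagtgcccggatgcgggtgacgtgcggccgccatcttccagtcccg
Vamp1, chr4:159698644-159698893, + strand: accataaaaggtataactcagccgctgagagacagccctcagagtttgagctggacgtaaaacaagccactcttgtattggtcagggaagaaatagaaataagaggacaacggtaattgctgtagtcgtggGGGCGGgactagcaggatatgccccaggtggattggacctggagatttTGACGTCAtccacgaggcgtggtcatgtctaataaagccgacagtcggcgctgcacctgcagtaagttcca
Stx1a, chr12:27306472-27306721, - strand: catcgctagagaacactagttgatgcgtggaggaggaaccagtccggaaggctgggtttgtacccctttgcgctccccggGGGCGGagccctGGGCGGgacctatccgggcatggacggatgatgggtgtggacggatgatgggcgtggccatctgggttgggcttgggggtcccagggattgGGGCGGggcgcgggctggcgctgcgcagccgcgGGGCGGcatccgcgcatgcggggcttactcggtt
Stx1a held 4 GC boxes, Vamp2 held 3, Cplx1 and Nsf held 2 each, and Vamp1 and Cplx2 held 1 each. A link between the number of boxes and the log2 ratios was not tested. A match names letters in this window only, and no binding was measured here.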

How the data were processed

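The authors deposited 1 linear intensity per probe set and array. The series' design text names dChip 1.3 for quantification, and MAS5 appears in the submitters' processing notes; which tool made the deposited intensity, and its scaling and background steps, is not given in the sources used here. The deposited values were used without further normalization. Values under the pooled 20th percentile (39.6) were raised to it, log2 was taken, and the ratio of neurons with myocytes over neurons alone was formed. Of 15923 probe sets, 57 controls were left out; 12783 had 1 symbol, 312 several and 2771 none. Symbols were updated through gene identifiers to the GRCr8 RefSeq table. A gene was its brightest probe set, and the filter was the array median in at least 1 array. There is 1 array per condition, so no test was run; precision is limited by there being 2 arrays and by signal over background. The SD of 1 probe set came from 749 genes with several, from the difference in log2 ratio of the 2 brightest (its SD over genes, divided by the square root of 2). The members, gene lists and rules were chosen with earlier results of these data known. All members were named, and of the lists of other SNAREs, regulators and vesicle proteins the 3 highest and 3 lowest plus a few fixed genes (among them Snap23, Vamp3, Napa, Syt1 and Syp), and of each marker list the 2 brightest. The 4 Unc13 genes were named after their values were seen. Syt1 was not among the genes measured here. With 2 arrays no gene was ranked by likeness of pattern. Scripts ran in Python 3.11.15 and were tested on simulated data.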

Additional observations from a re-analysis of the deposited data

How the results depend on the processing

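Of 279 recomputed values, 264 moved by less than the spread between probe sets (for a list's median, that SD over the square root of its number of genes; for counts, by no more than 1.5 times). Many of these could not move. Moving the floor leaves values above it as they were, and averaging does the same for genes with 1 probe set. Under the scaling and floor settings a gene's value also repeats that of its brightest probe set, so the tally does not measure how firm the results are. None of the values past 1.5-fold turned to the other sign. The number of members above the filter that were lower ranged from 5 to 7, and the share of all genes that were lower from 38.7% to 62.7%. The number at least 1.5-fold lower was 1 under median scaling, against 2.20% of all genes. It was 4 with the mean over probe sets above the filter, against 3.42% of all genes, and that setting also moved the members' median to -0.61. Median scaling moved the median of the other SNAREs to -0.014, that of the regulators to -0.0094 and that of the pan-neuronal genes to -0.11, and scaling to the spiked controls moved the other SNAREs to -0.16 and the pan-neuronal genes to -0.26. With no filter the median of the regulators was 0. Among single members, Vamp2 went to -0.31 with the mean over all probe sets, which brings in its dim one. The dim probe sets of Cplx2 and Vamp2 give ratios that the floor sets, so the signal over background limits both. No paired analysis was possible because each condition has 1 array.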
